A study of Mus musculus with 49 samples.

Results

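The genes described here encode the receptor chains that share, or make up, the common gamma chain receptors of the interleukins (ILs) IL-2, IL-4, IL-7, IL-15, and IL-21. They are Il2ra, Il2rb, Il2rg, Il4ra, Il7r, Il15ra, and Il21r, chosen by symbol, and they are 7 of the 23992 gene symbols in the RNA-seq tables. CD8+ T cells, isolated from spleen by removal of other cells, came from 2 mouse lines on the C57BL/6J strain. In the Stat5a line, knock-in (KI) mice were homozygous for STAT5A Y694F, and in the Stat5b line for STAT5B Y699F, in which the tyrosine that is phosphorylated on cytokine stimulation is replaced by phenylalanine. The wild-type (WT) cells of each line came from littermates, and the study used mice of both sexes aged 8 to 24 weeks. Each library used here had the pattern of female cells, as given below for Il2rg. Cells were collected directly (0 hr) or after 4, 24, or 48 hr with recombinant human IL-2 at 500 IU/ml, which gives 16 groups of line, genotype, and time. No group was cultured without IL-2, so effects of IL-2 and of time in culture cannot be told apart. Each group has 3 libraries except the Stat5a KI cells at 4 hr, which have 2 here, so 47 of the 48 libraries were used. The KI alleles were present in every cell of the mice and not only in T cells. The labels do not say which libraries share a mouse, and p-values therefore measure the spread between libraries.

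The common gamma chain, encoded by Il2rg, pairs with a cytokine-specific chain in each of these receptors. IL-2Rβ, encoded by Il2rb, is shared by IL-2 and IL-15, and with the gamma chain it carries the signal into the cell. IL-2Rα (Il2ra, CD25) and IL-15Rα (Il15ra) raise the affinity for their cytokine. JAK1 binds the cytokine-specific chains and JAK3 the gamma chain, and the kinases phosphorylate STAT5A and STAT5B, with STAT6 the main STAT downstream of IL-4 and STAT3 of IL-21. In CD8+ T cells, IL-7Rα is known as a chain of naive and memory cells whose mRNA is lowered by IL-2, whereas CD25 is induced by IL-2.

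The libraries used hold 17369112 to 60200653 reads on the longest transcript of each gene, with a median of 41410666. Values are given as RPKM, reads scaled to transcript length in kilobases and to the mapped reads of the library, in which the levels of different genes can be compared. Among the Stat5a libraries, 3 stood apart. The Stat5a KI library numbered 3 at 4 hr, which was left out, has 1028515 reads on these transcripts, which are 5.68% of its mapped reads. Of those, 6906 reads lie on Il2ra, an RPKM of 86.1, while Il2rb is at 0.635 RPKM and Il2rg at 1.99 RPKM. Replicate 2 of the Stat5a WT cells at 4 hr has 44.9% of its mapped reads on the longest transcripts, where the other libraries of these cells at 4 hr have 71.7% and 72.9%. Its Il2ra is the highest of the Stat5a WT libraries at 4 hr and its Il2rb, Il2rg, Il4ra, Il7r, and Il21r are the lowest. Replicate 3 of the Stat5a WT cells at 0 hr is the deepest library, and its Il2ra is the lowest of its group and the other 6 genes the highest. Calls of the 7 genes that are lost without 1 of the WT libraries, and those of Crlf2 and Socs3, are given with and without it.

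The 7 genes lie on 4 chromosomes of GRCm38, and no other annotated gene shares their exon bases. Il2ra (chr2:11642792-11693194, plus strand, 8 exons) and Il15ra (chr2:11705293-11733985, plus strand, 7 exons) are neighbours, 12.1 kb apart. Il4ra (chr7:125552271-125579474, plus strand, 11 exons) and Il21r (chr7:125603429-125633570, plus strand, 9 exons) are also neighbours, 24.0 kb apart. Il7r (chr15:9506159-9529876, 8 exons) and Il2rb (chr15:78480548-78495066, 10 exons) lie far apart on the minus strand of chromosome 15, and Il2rg (chrX:101264385-101268255, 8 exons) on the minus strand of the X chromosome. Phosphorylated STAT5 dimers are known to bind the GAS motif, spelled TTCNNNGAA, which reads the same on both strands. It was sought in RefSeq promoters of GRCm38.p6, windows from 250 bases before a start site to 50 bases after it, as was TTCNNNNGAA, the spacing preferred by STAT6. The table holds 7 windows of 6 of the genes, and Il2rb was named only. TTCNNNGAA occurs in 8.3% and TTCNNNNGAA in 6.95% of the 32851 windows of the table. The Il7r window holds TTCNNNGAA within the bases before the start site, at chr15:9530010-9530018, and none of the other windows of these genes holds either motif. The 250 bases before the start sites of Il7r (chr15:9529877-9530126, minus strand) and Il2ra (chr2:11642542-11642791, plus strand) are shown from 5′ to 3′, because these genes had the largest changes in opposite directions at 48 hr. Capitals mark the motif.
Il7r: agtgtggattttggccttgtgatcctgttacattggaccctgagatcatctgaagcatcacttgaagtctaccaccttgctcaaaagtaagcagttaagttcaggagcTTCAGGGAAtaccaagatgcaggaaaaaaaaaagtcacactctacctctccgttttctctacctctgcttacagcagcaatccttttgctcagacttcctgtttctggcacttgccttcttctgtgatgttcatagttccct
Il2ra: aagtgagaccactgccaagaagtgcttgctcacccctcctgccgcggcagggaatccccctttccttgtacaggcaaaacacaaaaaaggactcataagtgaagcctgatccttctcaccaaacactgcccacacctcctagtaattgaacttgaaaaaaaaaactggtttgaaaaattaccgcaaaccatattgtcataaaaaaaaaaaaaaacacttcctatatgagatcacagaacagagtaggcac
A match is a description of the letters, and binding was not analysed here. Motifs outside these windows were not sought, so a window without a match does not mean a gene without a STAT5 site. The study lists Il2ra and Il2rb among genes with both expression and STAT5 binding reduced in Stat5a or Stat5b KI cells.

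In cells taken directly from the mice, Il2rg had the highest level of the 7 and Il2ra and Il15ra the lowest in every group. In the WT cells, Il2rg had a mean of 199 ± 24.1 RPKM (SD, n = 3) in the Stat5a and 235 ± 14.2 RPKM in the Stat5b line. Il2rb followed with 122.5 ± 9.485 and 163 ± 6.91 RPKM, and the libraries of these genes did not overlap within either line. Il21r, Il7r, and Il4ra lay between 56.1 and 87.0 RPKM on average, in the order Il21r, Il7r, Il4ra in the Stat5a and Il21r, Il4ra, Il7r in the Stat5b line, and neighbours in each order overlapped. Il2ra was at 3.36 ± 1.28 and 2.19 ± 0.38 RPKM and Il15ra at 2.82 ± 0.836 and 3.86 ± 0.0483 RPKM. By 48 hr, the order of the WT cells was different, with Il2rb above Il2rg and Il7r last but for Il15ra. The libraries of Il2rb and Il2rg overlapped in the Stat5a but not in the Stat5b line. In the Stat5b KI cells, Il2rg remained the highest at each time, and Il7r and Il2rb overlapped at 4, 24, and 48 hr. Over the 47 libraries, the ratio of the highest to the lowest level was 35.8 for Il2ra (1.76 to 63.0 RPKM), the largest of the 7, and 1.89 for Il2rg (184 to 347 RPKM), the smallest.

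**Figure D1:**
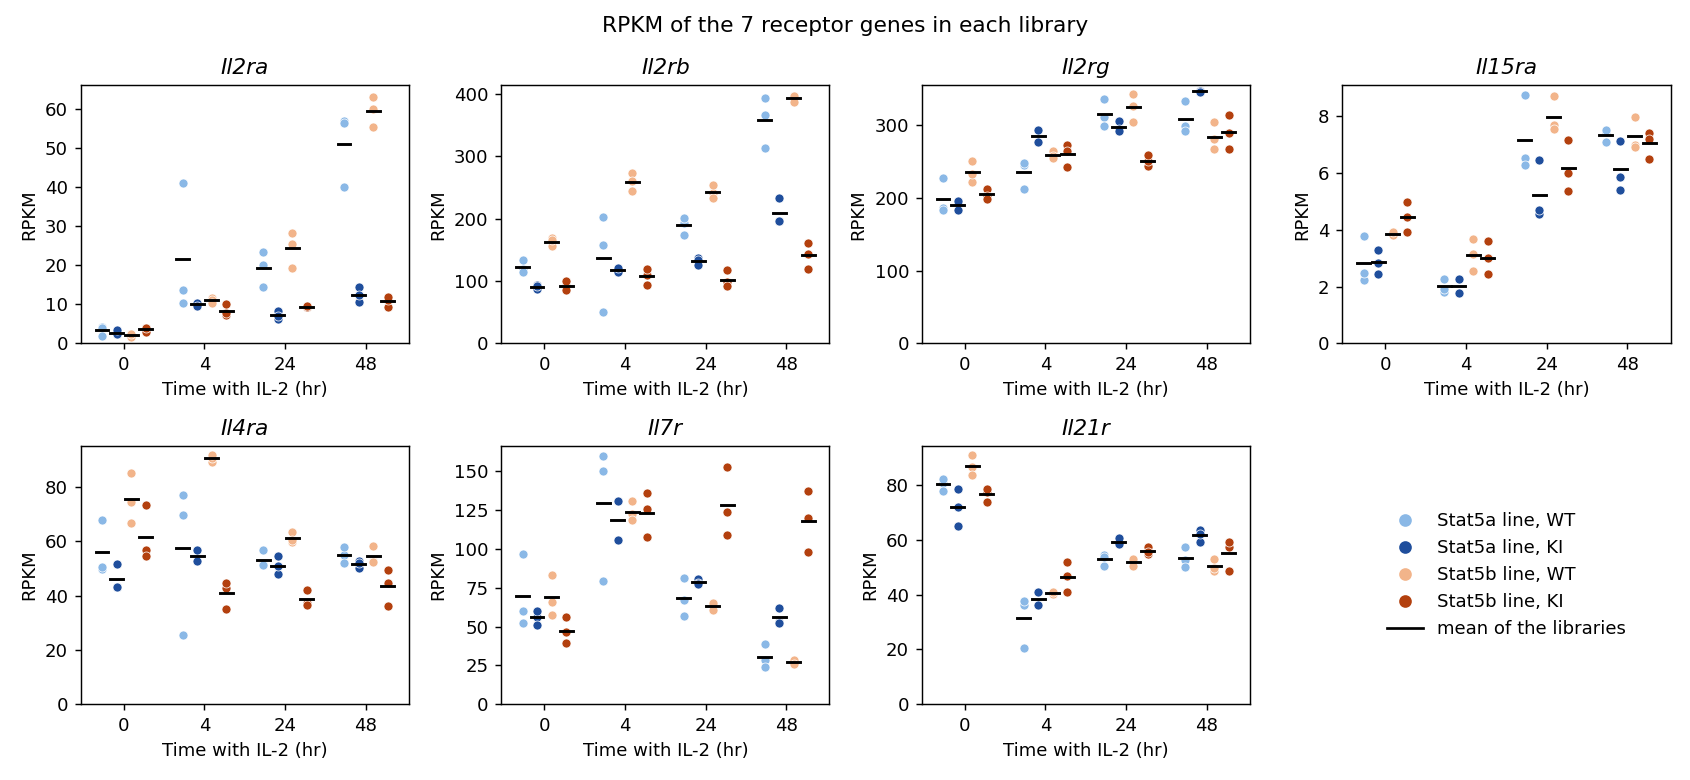
RPKM of the 7 receptor genes (y axis, from 0) by time with IL-2 (x axis, hr). Each point is a library of the Stat5a or Stat5b line, WT or KI, and each black line is the mean of a group; WT and KI points separate for Il2ra at 24 and 48 hr in both lines, and Il7r of the Stat5b KI cells stays at 98.1 to 137.3 RPKM at 48 hr where the WT cells are at 25.8 to 28.8.

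Against 0 hr, WT cells cultured with IL-2 had higher Il2ra at every time, higher Il2rb and lower Il7r at 48 hr, and lower Il21r at 4 hr. Both lines showed this. The response to IL-2, here and below, is this change from 0 hr and includes any effect of the culture itself. Each change was tested within a fit of all genes, and it was called where the adjusted p was 0.05 or less and the level differed 2-fold or more. Of the 7 genes, 2 were called in the Stat5a line at 4 hr (Il2ra higher, Il21r lower), 2 at 24 hr (Il2ra and Il15ra higher), and 4 at 48 hr (Il2ra, Il2rb, and Il15ra higher, Il7r lower). Of all 15566 genes tested, 21.4%, 22.9%, and 36.6% were called in these comparisons. In the Stat5b line, 2 genes were called at 4 hr, 1 at 24 hr, and 3 at 48 hr, where 15.7%, 22.5%, and 35.3% of all genes were called. The median log2 change of the 7 genes at 48 hr was 0.42 in the Stat5a and 0.10 in the Stat5b line, where that of all genes was -0.12 and -0.13.

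Past the 2-fold threshold, KI cells had lower Il2ra in both lines at 24 and 48 hr. Stat5b KI cells also had lower Il2rb from 4 hr on and higher Il7r at 48 hr. Stat5a KI cells had changes of the same sign under that threshold by edgeR. These were -0.58 (adjusted p = 0.0075) at 24 hr and -0.83 (adjusted p = 4.1e-05) at 48 hr for Il2rb, and 0.82 (adjusted p = 0.00024) at 48 hr for Il7r. Against WT cells, Stat5a KI cells had 1 called member at each of 4, 24, and 48 hr, in each case Il2ra, lower, and 0 called members at 0 hr by edgeR. The call at 4 hr was lost without replicate 2 of the WT cells (-0.33, adjusted p = 0.40), with limma, and in a fit of only the groups compared. At 0 hr, 3 members had an unadjusted p under 0.05 (Il2rb, Il4ra, and Il21r), and DESeq2 and limma also called 0. The shares of all genes called were 1.04%, 6.63%, 4.45%, and 8.78% in order of time. In Stat5b KI cells, 0 members were called at 0 hr (5 with an unadjusted p under 0.05, and 0 called by DESeq2 or limma), 2 at 4 hr (Il2rb and Il4ra, lower), 2 at 24 hr (Il2ra and Il2rb, lower), and 3 at 48 hr (Il2ra and Il2rb lower, Il7r higher). The shares of all genes called were 7.98%, 10.4%, 16.7%, and 26.3%. The median log2 change of the 7 genes at 48 hr was -0.14 in the Stat5a and -0.13 in the Stat5b line, where that of all genes was 0.04 and 0.10. In bulk RNA, fewer cells that express a gene and less of its RNA per cell cannot be told apart.

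**Figure D2:**
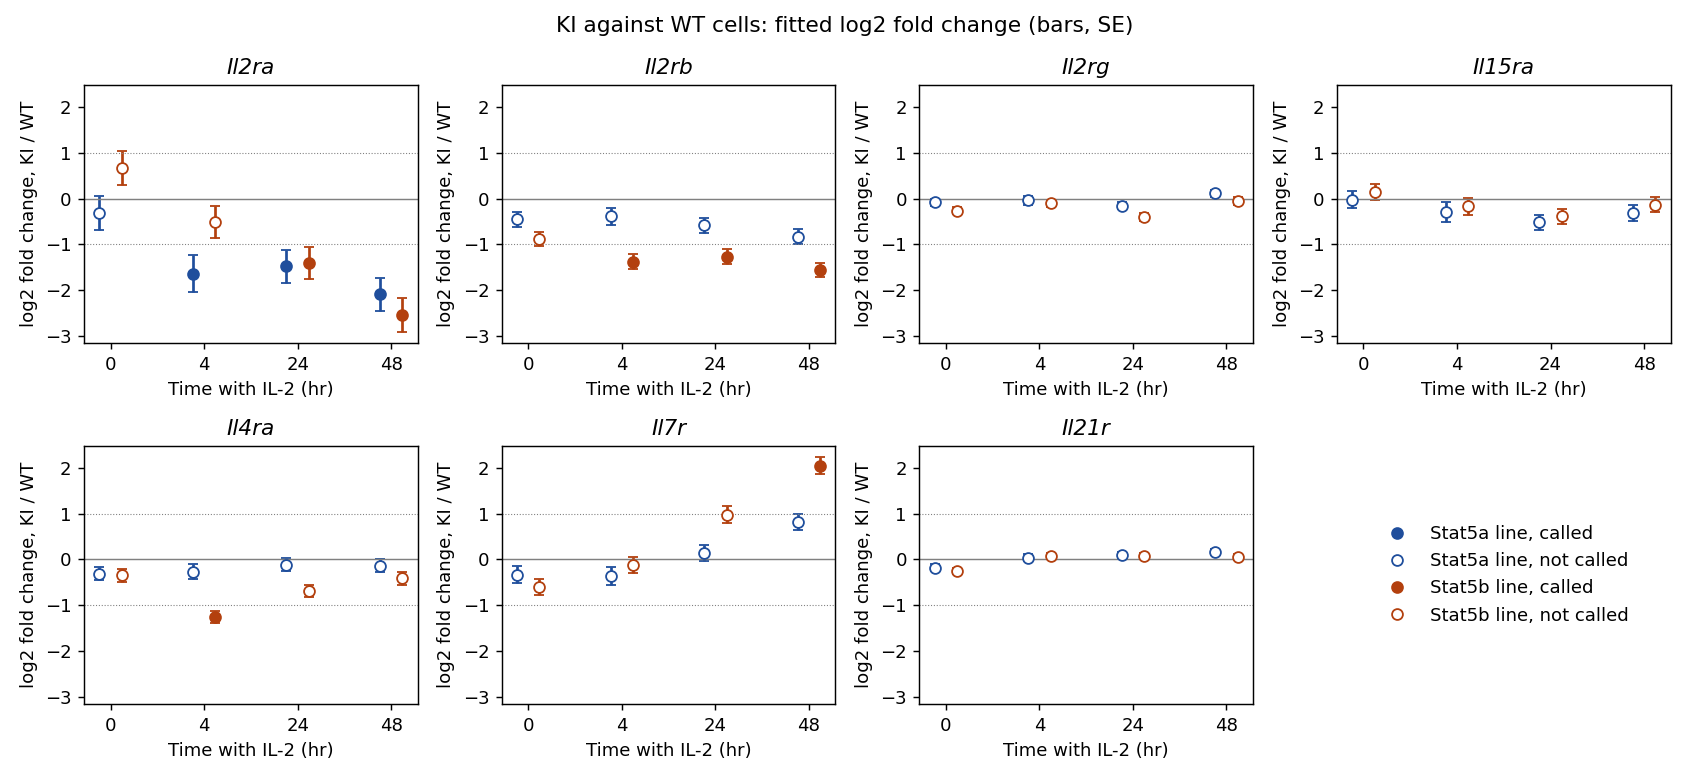
Fitted log2 fold change of KI over WT cells (y axis) by time with IL-2 (x axis, hr) for each receptor gene, with the SE as a bar and dotted lines at a 2-fold change. Filled points were called; Il2ra and Il2rb lie below 0 at 24 and 48 hr in both lines, and Il7r rises above 0 to 2.05 in the Stat5b line at 48 hr.

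The response to IL-2 differed between KI and WT cells for Il2ra and Il7r. In the difference of the responses, KI minus WT, the Stat5a line had 2 called members at 48 hr (Il2ra lower, Il7r higher) and 0 at 4 and at 24 hr by edgeR, where 2 and 3 had an unadjusted p under 0.05 and DESeq2 and limma also called 0. The shares of all genes called were 0.34%, 1.59%, and 6.25%. The Stat5b line had 2 called members at 24 hr and 2 at 48 hr, again Il2ra lower and Il7r higher, and 0 at 4 hr, where 4 had an unadjusted p under 0.05 and DESeq2 and limma called 0. Other fits gained a call of Il2ra, lower, in these differences. At 4 hr in the Stat5a line the value was -1.32 (adjusted p = 0.17), and it was called without replicate 1 (-1.72, adjusted p = 0.030) or replicate 3 (-1.78, adjusted p = 0.015) of the WT cells at 4 hr and was -0.01 without replicate 2. At 4 hr in the Stat5b line it was called in a fit of only the groups compared (-1.14, adjusted p = 0.011) and without replicate 2 of the Stat5a WT cells at 4 hr (-1.17, adjusted p = 0.017), and at 24 hr in the Stat5a line it was called without that library (-1.16, adjusted p = 0.0086). Here 0.61%, 10.2%, and 21.4% of all genes were called at 4, 24, and 48 hr. The effect of the KI allele was then compared between the lines, Stat5b minus Stat5a. At 48 hr 1 member was called, Il7r, higher in the Stat5b line, and 0 were called by edgeR at 0, 4, and 24 hr, where 0, 3, and 4 had an unadjusted p under 0.05. At 4 hr DESeq2 called 0, limma on log2(RPKM + 1) called 2 (Il2rb and Il4ra), and limma on log2(RPKM + 0.1) called 1 (Il4ra). The shares of all genes called were 0.0964%, 4.72%, 2.65%, and 2.06% in order of time.

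Cells of other types were present in differing amounts in the WT and KI libraries, by the markers of those types. The 6 B cell markers summed to 55.5 ± 3.95 RPKM in Stat5b WT and 214 ± 3.58 RPKM in Stat5b KI cells at 0 hr (SD, n = 3), and to 115.1 ± 53.7 and 258 ± 26.9 RPKM in the Stat5a line, with Cd79a the most abundant. At 48 hr the sums were 12.4 ± 1.23 against 121.6 ± 2.88 RPKM in the Stat5b line and 27.3 ± 12.9 RPKM in Stat5a WT cells, with the Stat5a KI cells above them. All 6 were called higher in Stat5b KI cells at each time, and in Stat5a KI cells 1, 3, 6, and 6 of them, in order of time. The myeloid markers, led in most groups by Lyz2, had 6 or 7 of 7 tested genes higher in Stat5b KI cells at each time, and 1, 3, 6, and 6 in Stat5a KI cells. The 5 erythroid markers were all called higher in Stat5b KI cells at each time, with sums of 51.2 ± 30.2 against 472 ± 215 RPKM at 0 hr. The counts in Stat5a KI cells at 0 and 4 hr depend on the WT libraries that stand apart. Without replicate 2 at 4 hr they were 4 and 3 for the B cell and 2 and 0 for the myeloid markers, and without replicate 3 at 0 hr they were 0 and 4 for the B cell and 0 and 3 for the myeloid markers. Of the erythroid markers in Stat5a KI cells edgeR called 0, with at most 2 at an unadjusted p under 0.05 at a time. At 4 and 48 hr DESeq2 called 1 and 2 of them, limma on log2(RPKM + 1) 1 and 0, and limma on log2(RPKM + 0.1) 3 and 2. None of the genes of these lists was at 0 reads in a KI group at 0 or 48 hr. The 4 CD4 and regulatory T cell markers summed to 12.0 ± 1.48 RPKM in Stat5b WT and 26.7 ± 4.35 RPKM in Stat5b KI cells at 0 hr, with Cd4 the most abundant. By edgeR, 1, 1, 3, and 3 of them were called higher in Stat5b KI cells and 0, 0, 2, and 2 in Stat5a KI cells, in order of time. In Stat5a KI cells at 4 hr Foxp3 was called lower (-1.2). Without replicate 2 of the WT cells at 4 hr Foxp3 was not called (-0.13), and Cd4 was called higher (1.32).

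Markers of CD8 T cells were high in every group. The 5 genes of that list, led in most groups by Cd8b1, summed to 1244 ± 75.7 RPKM in Stat5b WT and 986 ± 31.1 RPKM in Stat5b KI cells at 0 hr, and to 1044 ± 16.8 against 1579 ± 84.4 RPKM at 48 hr, and edgeR, DESeq2, and limma called 0 of them between KI and WT cells, although 3 to 5 had an unadjusted p under 0.05 at each time in the Stat5b line. The 8 memory-phenotype markers summed to 1195 ± 233 RPKM in Stat5b WT and 839 ± 73.2 RPKM in Stat5b KI cells at 0 hr, and the 5 NK cell markers to 34.2 ± 12.54 and 19.6 ± 5.02 RPKM. Of the memory-phenotype markers 0, 1, 2, and 3 were called lower in Stat5b KI cells in order of time, and 2 higher at 48 hr, and of the NK cell markers 2, 2, 3, and 2 were lower and 2 higher at 48 hr. The 6 naive T cell markers summed to 1599 ± 149.3 and 1320 ± 85.1 RPKM at 0 hr. By 48 hr the sums were 594 ± 27.0 RPKM in Stat5b WT and 1266 ± 66.7 RPKM in Stat5b KI cells, and 4 of the 6 were then called higher in KI cells, as was 1 of them in the Stat5a line. The part of these cell mixtures in the differences described below was not tested.

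**Figure D3:**
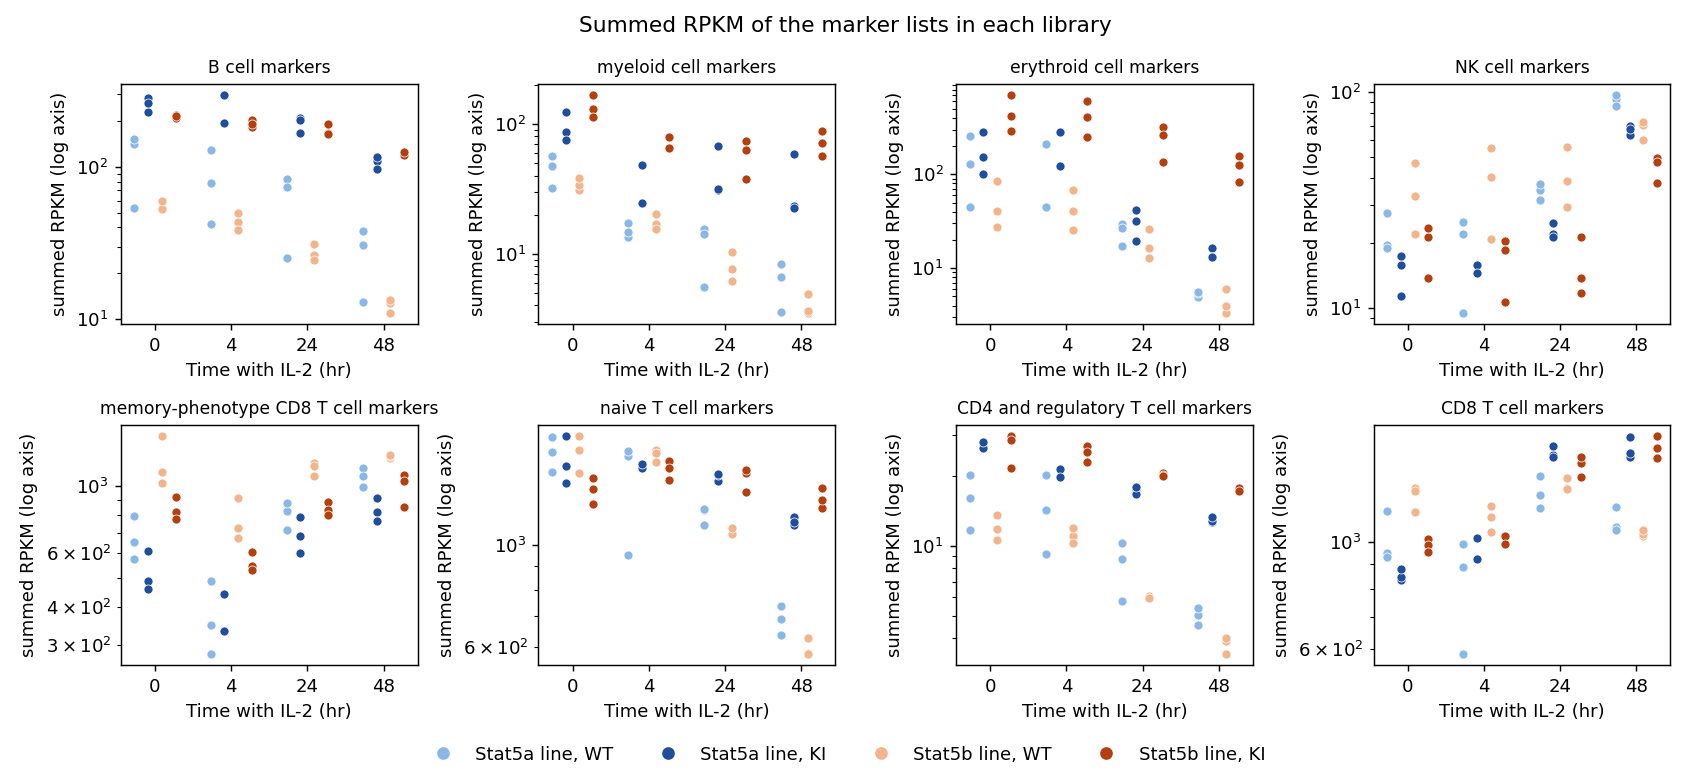
Summed RPKM of the markers of other cell types and of T cell subsets (y axes, log scale) by time with IL-2 (x axis, hr), 1 point for each of the 47 libraries. B cell, myeloid, and CD4 and regulatory T cell markers lie higher in KI than in WT cells at 48 hr in both lines, and naive T cell markers separate with time.

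Il2ra, the chain that makes the IL-2 receptor one of high affinity, was higher with IL-2 in WT cells at 4, 24, and 48 hr than at 0 hr, and the KI cells reached a lower level in both lines. Stat5b WT cells had it at 2.49, 1.76, and 2.31 RPKM at 0 hr in replicates 1, 2, and 3, at 11.5, 11.1, and 10.3 at 4 hr, at 25.4, 28.3, and 19.4 at 24 hr, and at 63.0, 59.8, and 55.3 at 48 hr. No library of a later time overlapped with an earlier one. In Stat5b KI cells it was at 4.08, 2.85, and 3.99 RPKM at 0 hr, at 7.40, 7.83, and 9.99 at 4 hr, within 9.3 to 9.6 at 24 hr, and at 9.21, 11.1, and 11.9 at 48 hr. All KI libraries were above all WT libraries at 0 hr and below them from 4 hr on. The WT response in the Stat5b line was 2.15 ± 0.38 (log2 fold change, SE), 3.29 ± 0.39, and 4.59 ± 0.41 at 4, 24, and 48 hr, the last a rise of 24.0-fold with an adjusted p of 1.6e-12. KI against WT was 0.67 ± 0.37 at 0 hr (adjusted p = 0.21) and -0.50 ± 0.35 at 4 hr (adjusted p = 0.31), and it was called at 24 hr (-1.40 ± 0.35, adjusted p = 0.0012) and 48 hr (-2.54 ± 0.37, adjusted p = 1.9e-07). The response of the KI cells minus that of the WT cells was -2.07 ± 0.51 on the log2 scale at 24 hr (adjusted p = 0.0016) and -3.21 ± 0.52 at 48 hr (adjusted p = 2.6e-06).

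In the Stat5a line, Il2ra of WT cells was at 4.26, 3.93, and 1.90 RPKM at 0 hr, at 13.6, 40.9, and 10.4 at 4 hr, at 14.5, 23.5, and 20.0 at 24 hr, and at 40.1, 56.8, and 56.3 at 48 hr. In the KI cells it was at 2.34, 2.47, and 3.33 RPKM at 0 hr, at 10.4 and 9.68 at 4 hr, at 8.41, 6.38, and 7.01 at 24 hr, and at 14.5, 10.6, and 12.3 at 48 hr. The KI and WT libraries overlapped at 0 and 4 hr and not at 24 or 48 hr. The WT response was 2.97 ± 0.38 at 4 hr (1.66 without replicate 2 of the WT cells at 4 hr), 2.36 ± 0.37 at 24 hr, and 3.72 ± 0.39 at 48 hr, and each was called. KI against WT was -1.48 ± 0.36 at 24 hr (adjusted p = 0.003) and -2.09 ± 0.36 at 48 hr, a level 4.25-fold lower (adjusted p = 1.1e-05). The call at 4 hr (-1.64 ± 0.41, adjusted p = 0.0055) rests on replicate 2 of the WT cells, and without that library the change was -0.33 (adjusted p = 0.40). The call was also lost with limma on log2(RPKM + 1) (-0.79) and log2(RPKM + 0.1) (-0.83), in a fit of only the groups compared (-1.73, adjusted p = 0.73), and without replicate 1 of the KI cells (-1.64, adjusted p = 0.11). The difference of the responses was -1.76 ± 0.51 at 48 hr (adjusted p = 0.0086). The lines did not differ in the effect of their KI alleles on Il2ra past the threshold at 24 hr (0.08, 95% interval -0.89 to 1.05) or 48 hr (-0.46, 95% interval -1.42 to 0.51). At 0 and 4 hr the difference, Stat5b minus Stat5a, was 0.99 ± 0.53 (adjusted p = 0.46) and 1.14 ± 0.53 (adjusted p = 0.14), and its call depended on the Stat5a WT libraries. It was 1.30 (adjusted p = 0.0071) at 0 hr without both WT libraries that stand apart, and at 4 hr it was 1.6 (adjusted p = 0.024) without replicate 1, 1.65 (adjusted p = 0.013) without replicate 3, and -0.17 (adjusted p = 0.82) without replicate 2. The reads behind these levels of Il2ra numbered from 423 to 17479 in a library.

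Il2rb, the signaling chain of the IL-2 and IL-15 receptors, was lower in KI cells of the Stat5b line before IL-2 was given and at each later time. In the Stat5b WT cells it was at 156, 169, and 165 RPKM at 0 hr, at 245, 273, and 260 at 4 hr, at 241, 254, and 232 at 24 hr, and at 397, 396, and 387 at 48 hr. In the KI cells it was at 91.5, 99.6, and 86.2 RPKM at 0 hr, at 93.6 to 119.7 at 4 hr, at 98.3, 117.4, and 91.8 at 24 hr, and at 143.9, 161, and 119.5 at 48 hr. KI and WT libraries did not overlap at any time. KI against WT was -0.88 ± 0.16 at 0 hr, which passed the test on p (adjusted p = 9.1e-05) and not the 2-fold threshold, and was called at 4 hr (-1.38 ± 0.16), 24 hr (-1.27 ± 0.16), and 48 hr (-1.56 ± 0.16, adjusted p = 1.2e-10). The WT response at 48 hr was 1.09 ± 0.16 (adjusted p = 1.2e-07), and the KI response differed from it by -0.67 ± 0.22 (adjusted p = 0.011), under the 2-fold threshold. Memory-phenotype CD8 T cells and NK cells are known for high IL-2Rβ, and the sums of their markers were also lower in these KI cells at 0 hr. The part of such cells in the level of Il2rb was not tested.

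In the Stat5a line, Il2rb was at 122.5 ± 9.485 RPKM in WT cells (SD, n = 3), with its highest library at 133.2, and at 87.8, 93.7, and 91.5 RPKM in KI cells at 0 hr. At 48 hr it was at 314, 394, and 367 RPKM in WT and at 233, 196, and 196 RPKM in KI cells, and the groups did not overlap at either time. The WT response was called at 48 hr (1.34 ± 0.16, adjusted p = 1.9e-09). KI against WT was -0.45 ± 0.16 at 0 hr (adjusted p = 0.11), -0.58 ± 0.16 at 24 hr (adjusted p = 0.0075), and -0.83 ± 0.16 at 48 hr (adjusted p = 4.1e-05), each under the 2-fold threshold. At 4 hr the WT libraries were at 158, 49.9, and 203 RPKM, with replicate 2 far below the KI libraries at 115.4 and 121.6 RPKM. KI against WT was -0.39 ± 0.18 (adjusted p = 0.10) with that library and -0.68 (adjusted p = 0.00031) without it. The effect of the KI allele on Il2rb differed between the lines, Stat5b minus Stat5a, by -1.0 ± 0.23 at 4 hr (adjusted p = 0.011), -0.69 ± 0.22 at 24 hr (adjusted p = 0.031), and -0.72 ± 0.22 at 48 hr (adjusted p = 0.028). None of these reached the 2-fold threshold in the main edgeR fit, and without replicate 2 of the Stat5a WT cells the value at 4 hr was -0.70 (adjusted p = 0.0070). The difference at 4 hr was called with the replicate block (-1.07) and with limma on log2(RPKM + 1) (-1.28). It was also called without replicate 3 of the Stat5a WT cells (-1.23) or of the Stat5b WT cells (-1.0) at 4 hr.

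Il2rg, the common gamma chain itself, was called in none of the comparisons by edgeR, DESeq2, or limma. In WT cells of the Stat5a line its level was 199 ± 24.1 RPKM at 0 hr and 308 ± 21.9 RPKM at 48 hr (SD, n = 3), a log2 change of 0.42 ± 0.08 (adjusted p = 2.8e-05) under the 2-fold threshold. In the Stat5b line the levels were 235 ± 14.2 and 284 ± 18.2 RPKM, with no overlap, and the log2 change was 0.10 ± 0.08 (adjusted p = 0.29) in the edgeR fit, which scales libraries by TMM, and 0.27 (adjusted p = 0.0020) with limma on log2(RPKM + 0.1). By edgeR the change at 24 hr was 0.49 ± 0.08 (adjusted p = 3.4e-06) in the Stat5a and 0.28 ± 0.08 (adjusted p = 0.0039) in the Stat5b line. Between KI and WT cells of the Stat5a line, the edgeR values ran from -0.15 to 0.12 and did not pass the test. At 4 hr the KI libraries, at 293 and 277.0 RPKM, lay above the WT libraries, at 245.8, 212, and 248 RPKM. The sign of the change depended on the fit, with -0.04 ± 0.09 (adjusted p = 0.77) by edgeR and 0.28 (adjusted p = 0.012) with limma on log2(RPKM + 0.1). It also depended on single libraries, since leaving out 1 at a time gave values from -0.18 to 0.13. In the Stat5b line, KI cells were at 245, 251, and 259 RPKM and WT cells at 327, 344, and 305 RPKM at 24 hr, with no overlap. The change was -0.40 ± 0.08 (adjusted p = 0.00013) at 24 hr and -0.26 ± 0.08 (adjusted p = 0.021) at 0 hr, where limma on log2(RPKM + 0.1) gave -0.20 (adjusted p = 0.089), and it was -0.10 at 4 hr and -0.05 at 48 hr, where neither passed. The gene is X-linked, and Xist, which is transcribed from the inactive X of female cells, was at 22.4 to 69.9 RPKM in the 47 libraries, while the Y-linked Ddx3y, Kdm5d, Uty, and Eif2s3y were at most at 0.0314 RPKM. The study used mice of both sexes, and each of these libraries thus has the pattern of female cells.

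Il15ra, which binds IL-15 with high affinity, had low levels that were higher at 24 and 48 hr than at 0 hr. Among WT libraries of the Stat5a line it was at 2.23, 2.47, and 3.78 RPKM at 0 hr and at 7.07, 7.43, and 7.51 RPKM at 48 hr, and it rose by 1.17 ± 0.17 on the log2 scale (adjusted p = 2.8e-07). In the Stat5b line it was at 3.81 to 3.90 RPKM at 0 hr and at 6.91 to 7.95 RPKM at 48 hr, and the change of 0.74 ± 0.17 (adjusted p = 0.00028) stayed under the 2-fold threshold. At 4 hr the fitted change had the opposite sign, -0.44 ± 0.18 (adjusted p = 0.037) and -0.48 ± 0.18 (adjusted p = 0.021) in the Stat5a and Stat5b lines. These values depend on single WT libraries, since the Stat5a value was -0.13 (adjusted p = 0.58) without replicate 3 at 0 hr and -0.20 (adjusted p = 0.38) without replicate 1 at 4 hr, and the Stat5b value was -0.33 (adjusted p = 0.17) without replicate 1 at 4 hr. By edgeR on the 47 libraries, KI and WT cells differed past the test on p only in the Stat5a line at 24 hr (-0.52 ± 0.17, adjusted p = 0.029), where the libraries overlapped. Some of the alternatives lost this pass. Some also passed in the Stat5b line at 24 hr (-0.39 ± 0.17, adjusted p = 0.053 by edgeR) or the Stat5a line at 48 hr (-0.31 ± 0.17, adjusted p = 0.14 by edgeR). The tables list 9 Il15ra transcripts, whose group means at 48 hr ran from 6.84 to 7.96 RPKM in the Stat5a WT cells. How reads on exons shared by isoforms were counted is not given in the sources used here, and no isoform is compared.

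Il7r, the specific chain of the IL-7 receptor, had the pattern opposite to Il2ra at 48 hr. In Stat5b WT cells it was at 83.5, 65.5, and 57.5 RPKM at 0 hr, at 130.8, 122.6, and 118.9 at 4 hr, at 64.5, 65.0, and 61.0 at 24 hr, and at 26.5, 28.8, and 25.8 at 48 hr. In Stat5b KI cells it was at 46.2, 39.7, and 55.9 RPKM at 0 hr, at 135.8, 107.6, and 125.7 at 4 hr, at 152.5, 108.7, and 123.8 at 24 hr, and at 119.6, 98.1, and 137.3 at 48 hr. The KI cells were thus below the WT cells at 0 hr, overlapped with them at 4 hr, and were above them at 24 and 48 hr with no overlap. The WT change with IL-2 was 0.67 ± 0.18 at 4 hr (adjusted p = 0.0015), -0.31 ± 0.17 at 24 hr (adjusted p = 0.13), and -1.53 ± 0.18 at 48 hr (adjusted p = 1.5e-09), of which the last was called. KI against WT was -0.60 ± 0.18 at 0 hr (adjusted p = 0.011), 0.98 ± 0.18 at 24 hr (adjusted p = 1.4e-05), just under the 2-fold threshold by edgeR, and 2.05 ± 0.18 at 48 hr, 4.15-fold (adjusted p = 3.4e-12). At 24 hr Il7r was called by DESeq2 (1.02), by edgeR with the size factors of DESeq2 (1.02), by limma on log2(RPKM + 0.1) (1.0), and by edgeR with WT replicate 1 (1.0), KI replicate 2 (1.08), or KI replicate 3 (1.02) at 24 hr left out. The responses differed by 1.59 ± 0.25 at 24 hr (adjusted p = 3.2e-06) and 2.66 ± 0.25 at 48 hr (adjusted p = 4.7e-11).

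In the Stat5a line, Il7r was at 60.1, 52.3, and 96.6 RPKM in WT and at 56.5, 50.9, and 60.3 RPKM in KI cells at 0 hr, with overlap. At 48 hr it was at 28.8, 24.1, and 38.7 RPKM in WT and at 62.2, 52.8, and 52.5 RPKM in KI cells, with no overlap, a change of 0.82 ± 0.18 (adjusted p = 0.00024) under the 2-fold threshold. The WT response at 48 hr was called (-1.39 ± 0.18, adjusted p = 1.1e-08). The responses differed by 1.15 ± 0.25 at 48 hr (adjusted p = 0.00057). That call depends on 2 of the WT libraries, since the difference was 0.83 without replicate 3 at 0 hr and 0.97 without replicate 2 at 48 hr. At 4 hr the WT change was 0.90 ± 0.18, and it was 1.25 (adjusted p = 5e-07), past the 2-fold threshold, without replicate 3 at 0 hr. The effect of the KI allele on Il7r differed between the lines, Stat5b minus Stat5a, by 0.85 ± 0.25 at 24 hr (adjusted p = 0.017) and by 1.24 ± 0.25 at 48 hr (adjusted p = 0.0011), and the latter was called. IL-7Rα is a marker of naive T cells as well, and the sum of the naive T cell markers was higher in KI than in WT cells at 48 hr in both lines. The part of such cells in the level of Il7r was not tested.

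Within a library, the ratio of Il7r to Il2rb sets the level of these chains against each other. In Stat5b WT cells the ratio of RPKM values went from 0.424 ± 0.0994 at 0 hr (SD, n = 3) to 0.0687 ± 0.00351 at 48 hr. In Stat5b KI cells it was 0.517 ± 0.125 at 0 hr and 0.863 ± 0.271 at 48 hr, and the groups overlapped at 0 hr and not at 48 hr. Stat5a libraries had a ratio that went from 0.561 ± 0.144 to 0.0860 ± 0.0227 in WT cells and from 0.615 ± 0.0630 to 0.268 ± 0.00104 in KI cells. As a share of the summed RPKM of the 7 genes, Il2rb made up 44.9% ± 1.33 in Stat5b WT and 21.2% ± 2.44 in Stat5b KI cells at 48 hr, and Il7r 3.08% ± 0.232 and 17.9% ± 3.71. The sum itself was 876 ± 14.7 RPKM in WT and 666 ± 34.9 RPKM in KI cells.

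**Figure D4:**
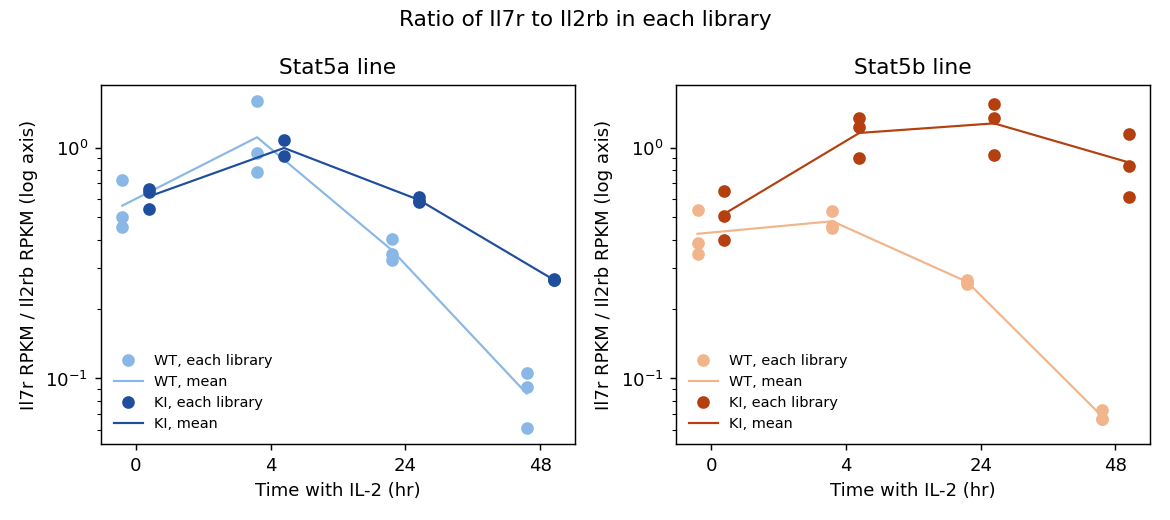
Ratio of the Il7r to the Il2rb RPKM (y axis, log scale) by time with IL-2 (x axis, hr) in each library of the Stat5a line (left) and the Stat5b line (right), with lines through the group means. The ratio falls to 0.0860 and 0.0687 in WT cells at 48 hr and lies at 0.268 and 0.863 in the Stat5a and Stat5b KI cells.

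Il4ra, the specific chain of the IL-4 receptor, was lower in Stat5b KI cells at 4 hr. It was at 89.2, 90.6, and 92.0 RPKM in WT and at 42.8, 44.8, and 35.3 RPKM in KI cells of that line at 4 hr, with a wide gap between the groups. The change was -1.26 ± 0.14 (adjusted p = 2.1e-08), a level 2.39-fold lower. At 24 hr it was at 59.8, 63.4, and 60.5 RPKM in WT and at 37.2, 42.2, and 36.7 RPKM in KI cells, a change of -0.69 ± 0.14 (adjusted p = 8.9e-05), and at 48 hr the change was -0.41 ± 0.14 (adjusted p = 0.011). At 0 hr the libraries overlapped and the change of -0.35 ± 0.14 did not pass (adjusted p = 0.063). The responses to IL-2 at 4 hr differed by -0.90 ± 0.20 (adjusted p = 0.0064), under the 2-fold threshold. Stat5a KI and WT libraries overlapped at each time, and the changes of -0.31 to -0.12 did not pass, although at 4 hr the change was -0.49 (adjusted p = 0.011) without replicate 2 of the WT cells. The effect of the KI alleles differed between the lines by -0.99 ± 0.21 at 4 hr (adjusted p = 0.0057), with the Stat5a WT cells at 69.7, 25.5, and 77.3 RPKM, and by -0.76 (adjusted p = 0.0077) without replicate 2, the lowest of these. This difference was called with the replicate block (-1.06) and with limma on log2(RPKM + 1) (-1.21) and log2(RPKM + 0.1) (-1.24). It was also called without replicate 1 (-1.0) or replicate 3 (-1.1) of the Stat5a WT cells at 4 hr. At 24 hr the effects differed by -0.56 ± 0.20 (adjusted p = 0.049). In WT cells, Il4ra was never called with IL-2, and its largest change was -0.64 ± 0.14 at 48 hr in the Stat5b line (adjusted p = 0.00011).

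Il21r, the specific chain of the IL-21 receptor, fell by 4 hr in the WT cells of both lines. In the Stat5b line it was at 86.5, 83.7, and 90.8 RPKM at 0 hr, at 40.2, 40.4, and 41.1 at 4 hr, and at 48.5, 49.8, and 52.9 at 48 hr. The log2 change at 4 hr was -1.28 ± 0.07 in the Stat5b line (adjusted p = 4.6e-17) and -1.35 ± 0.07 in the Stat5a line (adjusted p = 8.9e-18). At 24 and 48 hr the changes were -0.94 and -0.96 in the Stat5b line and -0.77 and -0.80 in the Stat5a line, under the 2-fold threshold. KI and WT cells differed little, by -0.25 ± 0.07 at 0 hr in the Stat5b line (adjusted p = 0.010) and by -0.18 to 0.16 elsewhere. The KI response minus the WT response was 0.34 ± 0.10 at 48 hr in the Stat5a line (adjusted p = 0.010) and 0.33 ± 0.10 at 24 hr (adjusted p = 0.010) and 0.30 ± 0.10 at 48 hr (adjusted p = 0.014) in the Stat5b line, each under the 2-fold threshold. B cells also express Il4ra and Il21r, and their markers moved as given above.

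Of the other receptor chains of these cytokines, Il9r and Il13ra1 were higher in KI cells. Il9r, the specific chain of the IL-9 receptor, fell by 4.83 on the log2 scale (SE 0.34) at 48 hr in Stat5a WT cells and changed by -4.85 ± 0.38 in those of the Stat5b line, and it was higher in KI cells at every time, by 2.54 ± 0.38 in the Stat5a and 4.81 ± 0.38 in the Stat5b line at 48 hr. Its mean level was low, 0.824 RPKM in Stat5b WT and 5.69 RPKM in Stat5b KI cells at 0 hr. At 48 hr all listed chains summed to 14.81 RPKM in Stat5a WT and 16.69 RPKM in Stat5b WT cells, with Crlf2 alone at 14.67 and 16.6 RPKM. The changes of Il9r at 48 hr are thus ratios to a very low WT level. Il13ra1, which pairs with IL-4Rα, also fell with IL-2 and was called higher in Stat5b KI cells at each time, by 2.78 ± 0.39 at 48 hr, and in Stat5a KI cells at 48 hr. Crlf2, which pairs with IL-7Rα in the receptor for TSLP, was called only in Stat5a WT cells at 4 hr (-1.0 ± 0.16, adjusted p = 2.3e-06), at the threshold. That call was lost without replicate 2 of these cells at 4 hr (-0.70) or without replicate 3 at 0 hr (-0.91). B cell and myeloid markers were higher in the same KI cells, and their part in these differences was not tested.

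Among the ligands, 4 of the 7 listed genes passed the filter on low counts, Il2, Il7, Il15, and Il21, and their levels were low. Il15 was at 0.930 RPKM in Stat5b WT cells and 1.79 RPKM in Stat5b KI cells at 0 hr, and it was called higher in the KI cells at 4 hr (1.07 ± 0.33) and 48 hr (1.68 ± 0.34). Il2 was called higher at 48 hr in KI cells of both lines (2.32 ± 0.64 in the Stat5a and 2.13 ± 0.64 in the Stat5b line), at levels of at most 0.537 RPKM. In WT cells it was called higher at 24 hr in both lines. Il21 was called higher in Stat5b KI cells at 0, 24, and 48 hr and Il7 at 24 hr, and Il21 fell with IL-2 in WT cells of both lines at 24 and 48 hr.

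Of the Janus kinases and STATs, Jak1, Jak3, Stat3, Stat5a, Stat5b, and Stat6, 0 of 6 were called between KI and WT cells in either line at any time by edgeR, DESeq2, or limma. At an unadjusted p under 0.05 there were 1, 1, 4, and 2 in the Stat5a and 2, 2, 3, and 3 in the Stat5b line, in order of time. In WT cells, Jak3 fell at 4 hr by 1.33 ± 0.13 in the Stat5a and by 1.51 ± 0.13 in the Stat5b line. The targeted genes themselves had log2 changes between KI and WT cells of 0.01 for Stat5a in the Stat5a line and -0.17 for Stat5b in the Stat5b line at 0 hr. The KI alleles substitute bases within the coding sequence, so these levels do not check the genotype.

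Cish, Socs1, and Socs2, feedback inhibitors of cytokine signaling, rose with IL-2 in WT cells. Each was called lower in Stat5b KI cells at some of the times, and in Stat5a KI cells only Cish and Socs2 were. Mean Socs1 in Stat5a WT and KI cells was at 58.1 and 72.7 RPKM at 4 hr and at 101.1 and 99.9 RPKM at 48 hr. Cish rose in WT cells at each time, by 2.79 ± 0.22 in the Stat5a and 3.61 ± 0.23 in the Stat5b line at 48 hr, and so did Socs1 and Socs2. In Stat5b KI cells Cish was lower at 4 hr (-1.93 ± 0.21), 24 hr (-2.32 ± 0.22), and 48 hr (-2.54 ± 0.22), Socs1 at 4 and 24 hr, and Socs2 at 48 hr (-1.84 ± 0.21). In Stat5a KI cells Cish (-1.29 ± 0.21) and Socs2 (-1.72 ± 0.21) were called lower, at 48 hr. Socs3 fell in Stat5b WT cells at 48 hr (-1.48 ± 0.17) and was lower in Stat5b KI cells at 4 hr (-1.0 ± 0.17), a call at the threshold that was lost without replicate 3 of the Stat5a WT cells at 0 hr (-0.97) or replicate 2 at 4 hr (-1.0 after rounding). Of the 4 genes, 0, 0, 0, and 2 were called lower in Stat5a KI cells and 0, 3, 2, and 2 in Stat5b KI cells, in order of time, and none was called higher. Where edgeR called 0, DESeq2 and limma did too, and at an unadjusted p under 0.05 there were 1, 0, and 3 in the Stat5a line at 0, 4, and 24 hr and 2 in the Stat5b line at 0 hr. The effect of the KI allele on Cish differed between the lines, Stat5b minus Stat5a, by -1.72 ± 0.31 at 4 hr, -1.39 ± 0.30 at 24 hr, and -1.25 ± 0.30 at 48 hr.

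The genes whose pattern over the 16 group means was most like that of each receptor gene were found among 7706 genes with a mean RPKM of at least 5, or 7707 for Il15ra, by Pearson's r of log2 CPM. They are Slc39a6 (r = 0.971), Mrpl39, and Uba6 for Il2ra, and Klre1 (r = 0.952), an NK cell receptor gene that is also in the NK cell marker list, Rad54l2, and Rbm15b for Il2rb. For Il7r they are Zbtb4 (r = 0.962), Fbxo25, and Tnrc6a, and for Il21r Ptk2b (r = 0.961) and Zmynd8. For Il15ra they are Fam26f (r = 0.960), Nfya, and Cdca7l, for Il2rg Xndr (r = 0.914), Gbp4, and Piga, and for Il4ra Wdr89 (r = 0.878), Rpl36a, and Rpl23a. The 16 means share lines, genotypes, times, and cell mixtures, so these values are descriptions. Over the 47 libraries r was lower for each of these pairs, between 0.652 for Il4ra and Rpl36a and 0.945 for Il21r and Ptk2b.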

How the data were processed

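CD8+ T cells were isolated from mouse spleens and cultured with IL-2, and mRNA libraries (KAPA mRNA HyperPrep) were sequenced as 50-base single-end reads. Per the labels and the study's methods, the authors aligned the reads to mm10 with TopHat2 2.0.11 (Bowtie2 2.2.6, SAMtools 0.1.8, and bedtools 2.25.0 are also listed in the submitters' processing notes, as is edgeR). The deposited tables hold raw read counts and, beside them, RPKM values that the authors computed per RefSeq transcript, with 31682 transcripts for 23992 gene symbols. The counting program and the use of strand are not given in the sources used here. Columns of other samples numbered 0. An IgG sample of a binding experiment was not analysed here.

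Each symbol was represented by its longest transcript. The Stat5a KI library numbered 3 at 4 hr was left out by the rule that defines the set. Counts of the 47 other libraries were fitted in a single model of 16 group means with edgeR 4.0.16 (quasi-likelihood test, TMM, filterByExpr with a minimum count of 10, R 4.3.3), and p-values were adjusted by Benjamini-Hochberg over 15566 genes. Genes were called where the adjusted p was 0.05 or less and the level differed 2-fold or more. The SE is the log2 fold change divided by the square root of F. A floor of 3 counts corresponds to 0.0498 to 0.173 CPM in these libraries and covers counting error only. The script was tested on simulated data.

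The members and lists were chosen with earlier results of these data known. Genes named outside the 7 receptor genes come from lists of receptor chains, ligands, kinases, feedback inhibitors, and cell type markers, and from the 3 genes with the highest Pearson's r to each receptor gene. Trac and Adgre1 of these lists have no row under that symbol, and 2 genes that these rules name are not reported here. The alternatives were DESeq2 1.42.0 and its size factors, no filter, limma 3.58.1 on log2(RPKM + 1) and log2(RPKM + 0.1) over genes at 1 RPKM in 3 libraries, all 48 libraries, only the groups compared, the shortest transcript, the replicate block, no fold threshold, and each library left out in turn. Leaving out the libraries that stand apart, both at once for the 7 genes and each in turn for the lists, was chosen after seeing the data.

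Whether libraries with the same replicate number deviate together was checked by the correlation of their deviations from the group means. In the Stat5a line, the numbers paired the 0 hr WT libraries with the WT libraries at 24 hr (0.206, 0.273, and 0.419) and 48 hr (0.166, 0.117, and 0.192), a hint from the data, since the labels do not state a pairing. At 4 hr the values were -0.226, 0.259, and 0.426, and the other comparisons had at least 1 value at or under 0.1.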

Additional observations from a re-analysis of the deposited data

Results flagged for a closer look

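The response of the KI cells to IL-2 differed from that of the WT cells, in a test of the difference itself, for Il2ra and Il7r. In the Stat5b line the difference for Il2ra was -2.07 at 24 hr and -3.21 at 48 hr on the log2 scale, and for Il7r it was 1.59 and 2.66 (edgeR). In the Stat5a line it was -1.76 for Il2ra and 1.15 for Il7r at 48 hr, and the latter was under the 2-fold threshold without WT replicate 3 at 0 hr (0.83) or WT replicate 2 at 48 hr (0.97). The effect of the KI allele on Il7r at 48 hr differed between the lines by 1.24, Stat5b minus Stat5a. The summed B cell, myeloid, and naive T cell markers were higher in the KI than in the WT cells at 48 hr in both lines, as given above, and their part was not tested.

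In the library of the Stat5a KI cells at 4 hr that was left out, Il2ra was at 86.06 RPKM from 6906 reads, above its highest value in the 47 libraries used, 63.0 RPKM. The other 6 receptor genes were at 0.289 to 1.99 RPKM there.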

How the results depend on the processing

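The 7 genes gave 168 results, of which 31 were called. Without leaving out single libraries, 1653 of 1680 recomputed values stayed on their side of the threshold, 11 lost a call, 13 gained one, and 3 reversed. All of the reversals came with the 48th library, Stat5a KI replicate 3 at 4 hr, and concern Il2ra at 4 hr: 4.70 for Stat5a KI against WT, 5.03 for the difference of the responses, and -5.16 for the difference between the lines. With it, Il2ra also lost 6 calls by edgeR at nearly the same log2 values, in Stat5a KI against WT cells at 24 hr (-1.51, adjusted p = 0.41) and 48 hr (-2.14, adjusted p = 0.076), in Stat5b KI against WT cells at 24 hr (-1.41, adjusted p = 0.24), in the Stat5b WT response at 4 hr (2.16, adjusted p = 0.065), and in the difference of the responses in the Stat5a line at 48 hr (-1.81, adjusted p = 0.42) and the Stat5b line at 24 hr (-2.06, adjusted p = 0.30). In 32 results a sign changed between values that were not called.

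Called members in the WT response numbered 33 with no fold threshold against 14 of 42. Those in Stat5a KI against WT cells numbered 1 with all 48 libraries and 7 with no fold threshold, against 3, and those in the Stat5b line 15 with no fold threshold against 7. The difference of the responses had 1 call in the Stat5a line without both libraries that stand apart, against 2, and 8 in the Stat5b line with no fold threshold, against 4. The difference between the lines had 3 calls with limma on log2(RPKM + 1), 2 with limma on log2(RPKM + 0.1), 2 with all 48 libraries, 7 with no fold threshold, and 2 without both libraries that stand apart, against 1. With the replicate block it had 3 calls, since Il2rb (-1.07) and Il4ra (-1.06) at 4 hr were then past the 2-fold threshold, and the block changed no other call. Leaving out 1 library at a time gave 14 to 15 calls in the WT response, 2 to 3 and 7 to 8 in Stat5a and Stat5b KI against WT cells, 1 to 3 and 4 to 5 in the differences of the responses, and 1 to 4 in the difference between the lines. The lower value of 1 for the Stat5a line came without WT replicate 3 at 0 hr or replicate 2 at 48 hr, and the 4 calls between the lines without Stat5a WT replicate 3 at 4 hr. The cause of these moves was not tested. Limma on log2(RPKM + 1) moved the median of all genes from -0.123 to 0.24 in the Stat5a WT and from -0.133 to 0.185 in the Stat5b WT response at 48 hr, and from 0.035 to 0.295 in Stat5a KI against WT cells at 4 hr.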
